A study of Drosophila melanogaster with 6 samples.

Results

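The odorant-binding protein (Obp) genes of Drosophila melanogaster were compared between CR11538-overexpressing and control flies. Members were all genes of the count table whose symbol begins with Obp and a digit. This gave 51 of 17558 gene identifiers. There were 3 RNA libraries of the overexpressing genotype, Gal80ts; Tub> CR11538, and 3 of the control genotype, Gal80ts; Tub-Gal4/P{CaryP}attP40. Adult males of both genotypes were injected with M. luteus, a Gram-positive bacterium, and collected 12 h later, and the methods give an age of 3 to 4 days. Both genotypes carried Gal4 driven by the tubulin promoter, a promoter used in most cells of the fly, and the temperature-sensitive repressor Gal80ts. According to the methods, flies were kept at 18 °C and moved to 29 °C for 24 h to release Gal4. The UAS-CR11538 transgene sat at a single landing site, attP40, which the controls carried without the insert. The methods state, for the experiments in general, that there were 3 independent biological replicates. The labels do not say how many flies a library pools or whether replicates are separate crosses. The p-values therefore rest on the spread among these 6 libraries, and how far that spread is technical cannot be told from the labels. Uninfected flies were not among the samples, so every comparison here is of infected with infected flies.

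Odorant-binding proteins are small secreted proteins, named for those that fill the fluid around olfactory neurons, where they bind odorants and pheromones on their way to receptors. Many members of the family are made outside the nose of the fly: in taste bristles, in the fat body, in glia, and in the male reproductive tract, from which some pass to females in seminal fluid. The genes lie in clusters of tandem copies named after the cytological section of the chromosome, so that Obp56a to Obp56i, for example, are neighbours in section 56.

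The CR11538-overexpressing libraries held 18688260 to 19652500 counts and the control libraries 17040432 to 19237306. lncRNA-CR11538 itself had 2291, 3358 and 3312 raw counts in the CR11538-overexpressing libraries, against 5, 2 and 5 in the control libraries (log2 fold change 9.47), as the labels state. Values below are normalized counts, that is counts scaled between libraries by TMM, and each comparison is edgeR's quasi-likelihood test over the 13159 genes that passed the filter on low counts. A gene is called higher or lower at a Benjamini-Hochberg adjusted p under 0.05 over all tested genes, and log2 fold changes, given with their standard error (SE), are positive where CR11538-overexpressing flies were higher. The first principal component separated the genotypes, and the second set CR11538-overexpressing replicate 1 (23.8) apart from replicate 3 (-21.4), with the control libraries between -2.05 and 6.34.

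The genotypes differed in which members made up the family's counts. All members together took 0.295 to 0.313% of the counts in CR11538-overexpressing libraries and 0.294 to 0.302% in control libraries, and these ranges overlap. The 4 members of section 99 took 39.5, 38.1 and 28.4% of all Obp counts in the CR11538-overexpressing libraries, against 18.4, 16.1 and 15.9% in the control libraries. These shares are not corrected for gene length. The 9 members of section 56 took 29.8, 28.8 and 37.2% in the CR11538-overexpressing libraries, against 41.0, 39.8 and 39.9% in the control libraries. The ranges of both sections do not overlap between the genotypes. Shares of the same total are tied to each other, and in section 56 only Obp56d was called, as lower.

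Of the 51 members, 33 passed the filter and were tested. Of these, 5 were higher (Obp99b, Obp83g, Obp99c, Obp99a and Obp49a), 9 were lower (Obp56d, Obp51a, Obp18a, Obp57c, Obp57a, Obp57b, Obp8a, Obp19d and Obp22a) and 19 did not pass the test. Among all tested genes 15% were higher and 14.2% lower, in all 29.2%, while the 14 called members are 42.4% of the 33. A change of more than 2-fold as well was found for 4 members, Obp99b and Obp83g upwards and Obp56d and Obp51a downwards, against 4.66% of all tested genes (3.43% upwards and 1.23% downwards). The values of 16 of the 33 did not overlap between the genotypes, 7 of them higher and 9 lower, as was the case for 45.2% of all tested genes (21.8% higher and 23.3% lower). The median log2 fold change was 0.08 for the tested members and -0.01 for all tested genes. The count of 14 was 9 without control replicate 2 and 9 without control replicate 3, and that of 4 was 7 without control replicate 1. Without CR11538-overexpressing replicate 3, control replicate 2 or control replicate 3, and with scaling by library size alone, 3 members were higher in place of 5.

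**Figure D1:**
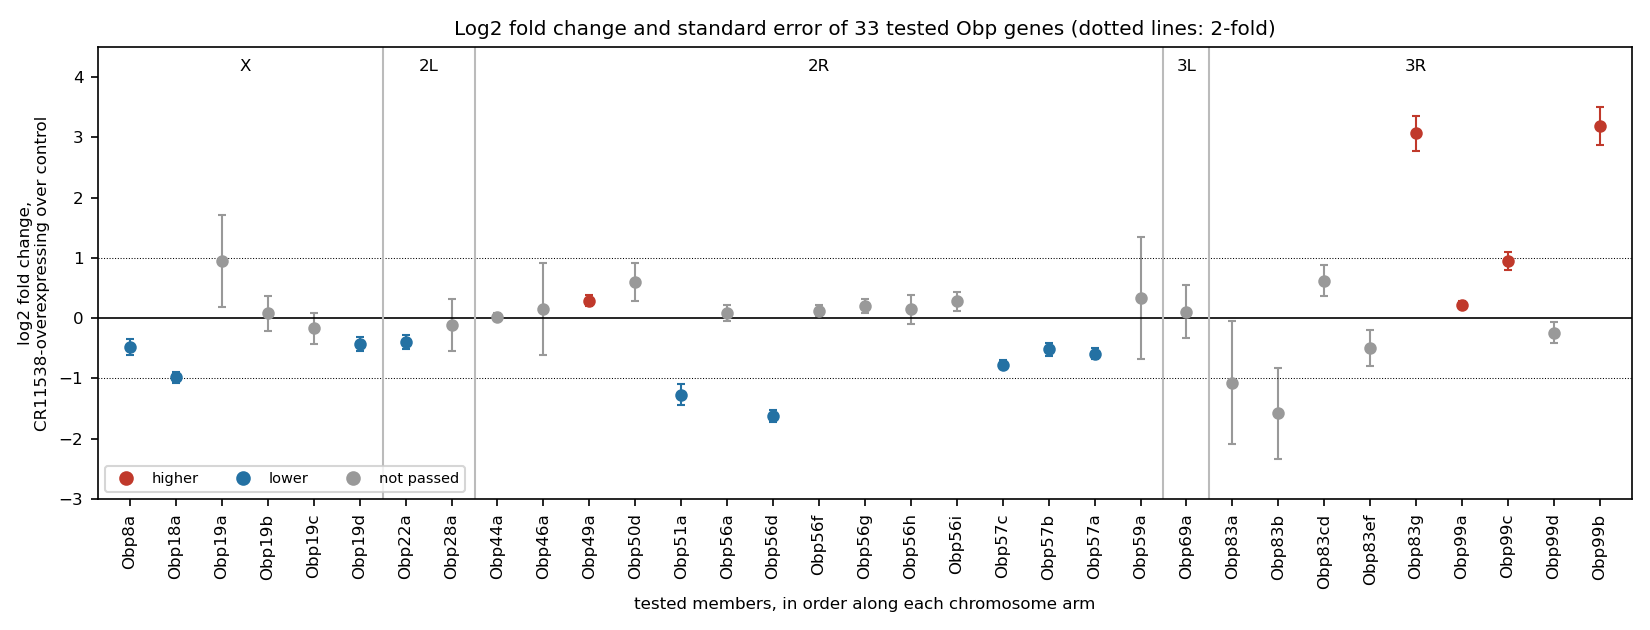
Log2 fold change of CR11538-overexpressing over control flies for the 33 tested Obp genes (vertical axis; points with bars of 1 standard error), in order along the chromosome arms X, 2L, 2R, 3L and 3R (horizontal axis); red is higher, blue is lower and grey did not pass. Obp99b (3.19) and Obp83g (3.07) stand highest, both on 3R, and the tested member called lower by the most was Obp56d (-1.62) on 2R.

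Levels of different members were compared per length, as counts per kilobase of merged exons per 1000000 normalized counts (means ± SD, n = 3). Obp56g, which in males is made in the ejaculatory bulb and passed to females, had the highest mean level in both genotypes, with 1397 ± 185 in CR11538-overexpressing flies and 1216 ± 125 in control flies. Obp99c had 1107 ± 246 in CR11538-overexpressing flies, which overlaps Obp56g within their SD, and its 573 ± 57.9 in control flies lay next to 593 ± 22.9 for Obp51a. In control flies the neighbours in this order, Obp51a and Obp99c, Obp99c and Obp56d (507 ± 40.0), and Obp56d and Obp44a (470 ± 5.32), overlap within their SD. In CR11538-overexpressing flies the next levels were 477 ± 14.1 for Obp44a, a fatty acid carrier of glia, and 413 ± 144 for Obp99b, which overlap within their SD. Obp99b had 45.0 ± 19.4 in control flies, a level close to that of Obp57b (45.0 ± 0.326). Obp44a had 9712, 9296 and 9841 normalized counts in CR11538-overexpressing flies, against 9555, 9366 and 9550 in control flies (log2 fold change 0.02, SE 0.06, adjusted p = 0.855), and the genotypes overlap. A stretch of 205 bp of its exons is shared with Pabp2 on the opposite strand, and whether strand was used in counting is not given in the sources used here.

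**Figure D2:**
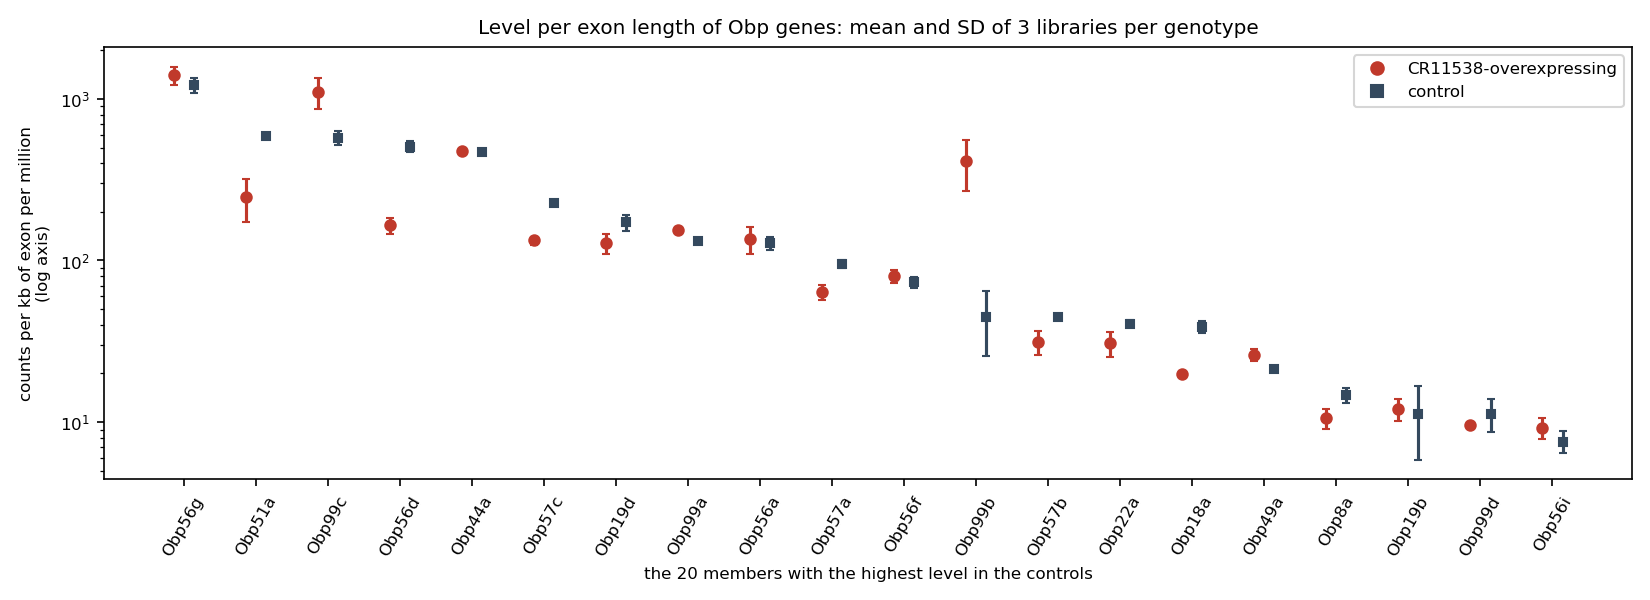
Counts per kilobase of merged exons per 1000000 normalized counts (log axis) for the 20 Obp genes with the highest levels in control flies; circles are CR11538-overexpressing and squares control flies, as means with SD of 3 libraries each. Obp99b stands at 413 in CR11538-overexpressing flies and at 45.0 in control flies, while Obp56g and Obp44a have overlapping levels.

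The largest rise in the family was that of Obp99b, also known as turn on sex-specificity, a gene of the male fat body under control of the sex-determination pathway. It had 6098, 4778 and 2911 normalized counts in CR11538-overexpressing libraries, against 748, 411.5 and 346 in control libraries. All CR11538-overexpressing libraries lay above all control libraries, and replicate 1 was the highest of each genotype. The log2 fold change was 3.19 (SE 0.32, adjusted p = 0.000183), a fold of 9.14, and ran from 2.93 to 3.60 with each library left out in turn.

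Its neighbour Obp99c, on chromosome 3R of dm6 from 29685736 to 29689311, rose by less than 2-fold. It had 16751, 14313 and 10610 normalized counts in CR11538-overexpressing libraries, against 8010, 6914 and 6637 in control libraries (log2 fold change 0.95, SE 0.15, adjusted p = 0.00184). The libraries do not overlap, and again replicate 1 was the highest of each genotype. There were 2.75, 3 and 3.65 counts of Obp99c for each count of Obp99b in the CR11538-overexpressing libraries, against 10.7, 16.8 and 19.2 in the control libraries, and these ratios do not overlap between the genotypes.

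The other members of section 99 moved little. Obp99a had 1753, 1718 and 1840 normalized counts in CR11538-overexpressing libraries, against 1579, 1481 and 1486 in control libraries (log2 fold change 0.22, SE 0.06, adjusted p = 0.0209). Although these values do not overlap, the call did not survive the removal of control replicate 2 (adjusted p = 0.0797), control replicate 3 (0.0668) or CR11538-overexpressing replicate 3 (0.0536), or scaling by library size alone (0.0647). Obp99d had 92.7, 87.1 and 89.1 normalized counts in CR11538-overexpressing libraries, against 98.5, 133 and 85.9 in control libraries (log2 fold change -0.24, adjusted p = 0.355), and its genotypes overlap. Obp99d ends 1249 bp before Obp99b begins (29716254 to 29716896, minus strand), the closest pair of the section, which spans 45.2 kb. Genes lying between members were looked at after the data had been seen. Of the 6 tested ones in section 99, only Dup99B, a seminal peptide gene of the ejaculatory duct, was called (log2 fold change 0.57, adjusted p = 0.00998). Of the nearest genes outside, CG15506 was higher (log2 fold change 0.88, adjusted p = 0.0145) and ppk30 did not pass (0.18, adjusted p = 0.816).

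Markers of the fat body moved with Obp99b in part. Of 6 such genes measured, Fbp1, Lsp1gamma and apolpp were higher, to was lower and AkhR and tobi did not pass. Their summed level was 35387 to 65407 normalized counts in CR11538-overexpressing libraries, against 27188 to 35952 in control libraries. These ranges overlap, and none of the 6 genes was at 0. The markers plin1 and FASN1 were also planned but were not found under these symbols. Fbp1, a receptor for larval serum proteins, had 2948, 2963 and 1276 normalized counts in CR11538-overexpressing libraries, against 221, 44.2 and 5.37 in control libraries (log2 fold change 4.70, SE 0.67, adjusted p = 0.00107). Genes known to be sex-regulated in the fat body of the head went the other way from Obp99b: the 4 tested ones, Cyp4d21, sxe2, to and Yp3, were all lower, with a summed level of 2153 to 2737 normalized counts in CR11538-overexpressing libraries, against 4235 to 4357 in control libraries, while Yp1 and Yp2 had too few counts to be tested. In such whole-animal RNA, fewer cells of a type and less RNA per cell cannot be told apart. The part of these markers in the values of Obp99b was not tested.

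**Figure D3:**
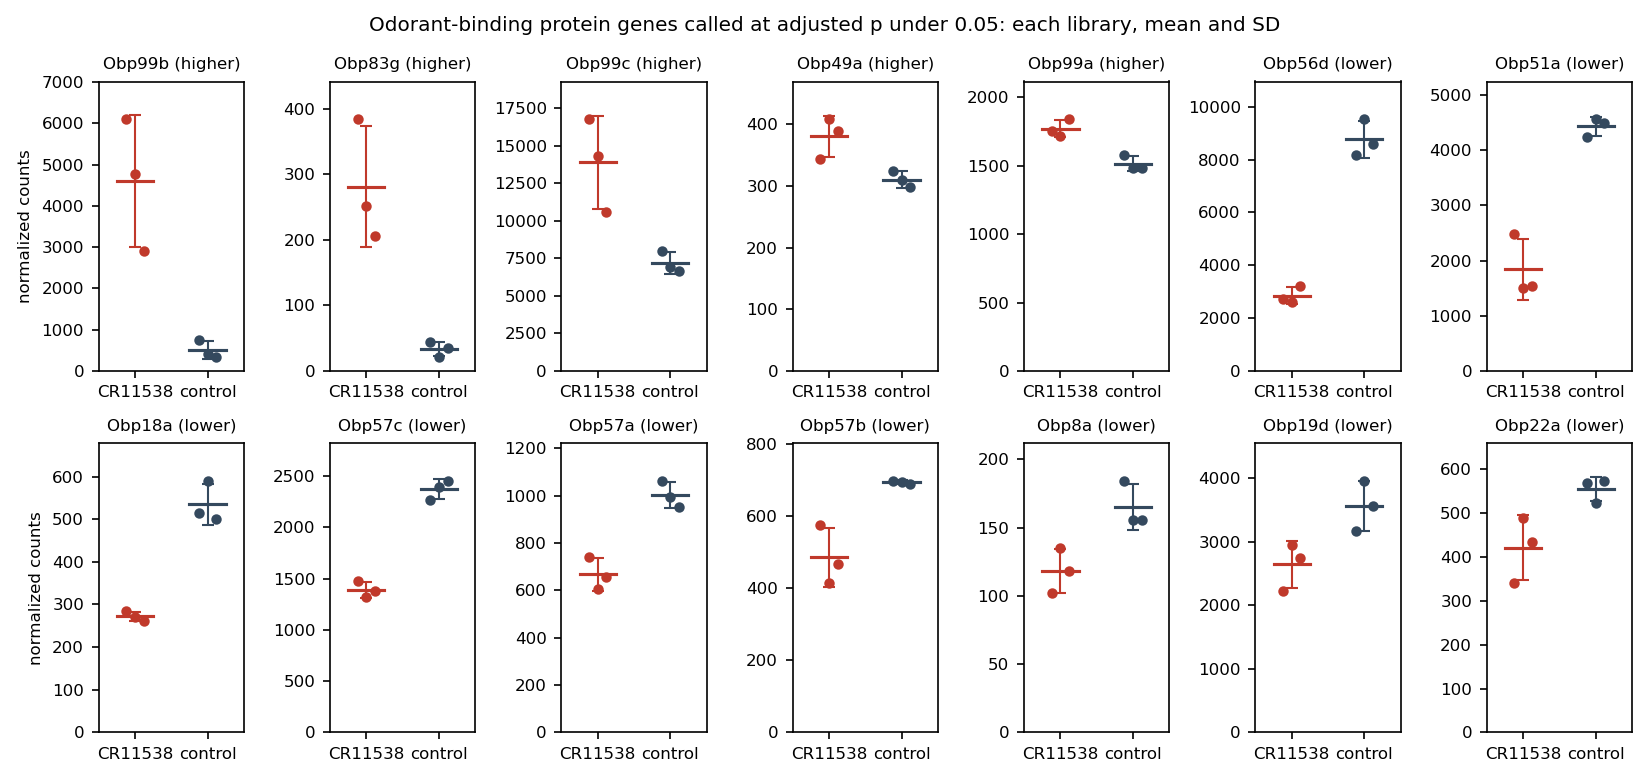
Normalized counts (vertical axis, from 0) of the 14 Obp genes with an adjusted p under 0.05, with CR11538-overexpressing libraries in red on the left and control libraries in blue-grey on the right; points are libraries and bars the mean and SD. The values of the 14 genes do not overlap between genotypes, and those of Obp99b reach 6098 in CR11538-overexpressing flies and 748 in control flies.

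In section 83, also on 3R, Obp83g rose about as strongly as Obp99b from a lower level. It had 384, 251.5 and 206 normalized counts in CR11538-overexpressing libraries, against 43.9, 21.6 and 34.4 in control libraries, and the genotypes lie far apart. The log2 fold change was 3.07 (SE 0.29, adjusted p = 0.000134), a fold of 8.39. The neighbours of Obp83g did not follow it. Obp83ef had 125, 62.4 and 59.1 normalized counts in CR11538-overexpressing libraries, against 148, 85.4 and 114 in control libraries (log2 fold change -0.50, SE 0.30, adjusted p = 0.252). Obp83cd had 46.8, 46.5 and 52.3 normalized counts in CR11538-overexpressing libraries, against 38.0, 21.6 and 35.4 in control libraries (log2 fold change 0.62, SE 0.26, adjusted p = 0.0993), with no overlap. Without CR11538-overexpressing replicate 1 Obp83ef was called, with a log2 fold change of -0.93 (adjusted p = 0.0165). Obp83cd and Obp83ef share 92 bp on opposite strands, so their reads there may not have been told apart.
The remaining pair of the section, Obp83a and Obp83b, lies beyond a gap of 131 kb and is described with the antennal genes. Of 6 tested genes in the span of the section, Gasp, which encodes a chitin-binding protein of the cuticle, was higher (log2 fold change 1.56, adjusted p = 0.000121) and the cathepsin gene CtsL3 was lower (log2 fold change -1.92, adjusted p = 2.15e-05). CG15580 was higher (0.38, adjusted p = 0.0158), Rm62 was lower (-0.46, adjusted p = 0.00784), and the other 2 did not pass.

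The strongest fall was that of Obp56d, on 2R, a gene known from the antenna, the maxillary palps and taste organs. It had 2719, 2626 and 3215 normalized counts in CR11538-overexpressing libraries, against 8186, 9529 and 8577 in control libraries. The lowest control library lay far above the highest CR11538-overexpressing library. The log2 fold change was -1.62 (SE 0.10, adjusted p = 2.15e-05), a fold of 0.326, and ran from -1.72 to -1.56 with each library left out in turn.
No other member of section 56 was called. Obp56g, with 13231, 11133 and 14536 normalized counts in CR11538-overexpressing libraries, against 12611, 10463 and 10787 in control libraries, had a log2 fold change of 0.20 (SE 0.11, adjusted p = 0.207). Obp56a had 1646, 1122 and 1399 normalized counts in CR11538-overexpressing libraries, against 1442, 1225 and 1261 in control libraries (log2 fold change 0.09, adjusted p = 0.653). Both overlap between genotypes. Obp56f, Obp56h and Obp56i had log2 fold changes of 0.12, 0.15 and 0.28 (adjusted p of 0.318, 0.688 and 0.208), and Obp56b, Obp56c and Obp56e were too low to test. The 9 genes are spread over 171 kb with 6 tested genes of other kinds between them, of which CG8517 (log2 fold change 0.30, adjusted p = 0.00959) and CG44569 (1.87, adjusted p = 0.0424) were higher and none was lower.

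The 3 tested genes of section 57 were all lower, by similar sizes. Obp57c, Obp57b and Obp57a follow each other on the plus strand of 2R, from 20503584 to 20505758, with gaps as small as 13 bp. Obp57c had 1471, 1316 and 1383 normalized counts in CR11538-overexpressing libraries, against 2262, 2393 and 2453 in control libraries (log2 fold change -0.77, SE 0.07, adjusted p = 8.04e-05). Obp57a had 742, 606 and 656.5 normalized counts in CR11538-overexpressing libraries, against 1063, 993 and 951 in control libraries (log2 fold change -0.59, SE 0.09, adjusted p = 0.00126). The genotypes do not overlap for either gene. Obp57b, between them, had 575, 415 and 468 normalized counts in CR11538-overexpressing libraries, against 699, 696 and 689 in control libraries (log2 fold change -0.52, SE 0.11, adjusted p = 0.00772). Its control libraries lay within 10 counts of each other, and the CR11538-overexpressing libraries were all lower. The 3 genes remained called with each library left out.
Obp57d and Obp57e, which are made in taste bristles of the legs and mouthparts and take part in the avoidance of fatty acids, lie 42.1 kb further on and did not pass the filter on low counts, and Obp57d shares all its exons with another gene. Of the 13 tested genes of other kinds in the span of the section, 2 were lower and none was higher. These were Bbd (bombardier), which is induced by the Toll pathway (log2 fold change -1.21, adjusted p = 6.22e-05), and the immune-induced gene GNBP-like3 (-1.08, adjusted p = 0.000127). The nearest tested gene before the section, lncRNA:CR44643, was lower as well (-0.55, adjusted p = 0.0195), and lms, after it, did not pass (0.23, adjusted p = 0.640).

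**Figure D4:**
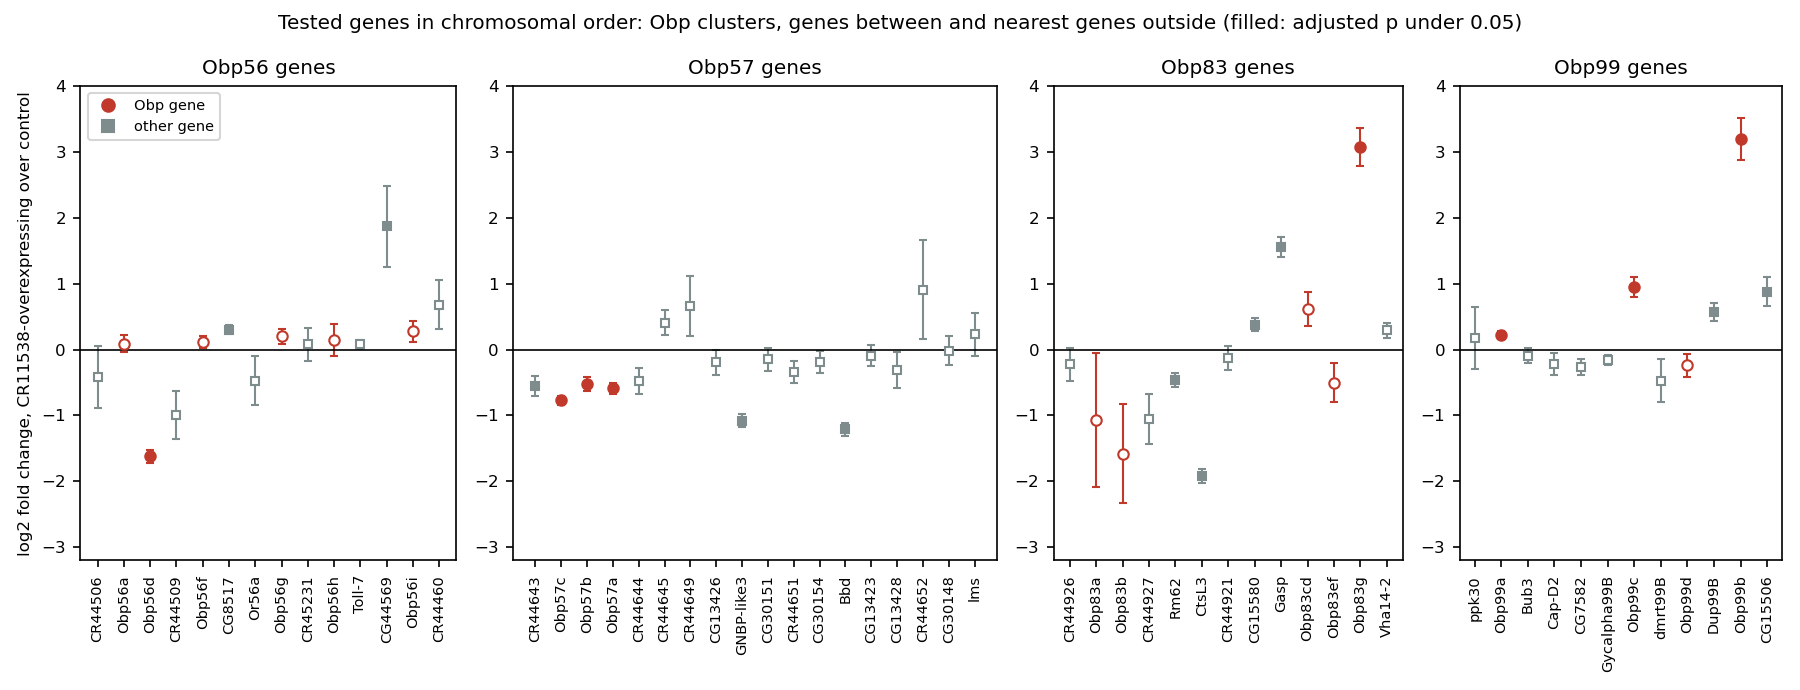
Log2 fold change of CR11538-overexpressing over control flies (vertical axis, with bars of 1 standard error) for tested genes of sections 56, 57, 83 and 99 in chromosomal order; red circles are Obp genes, grey squares other genes between and next to them, and filled symbols have an adjusted p under 0.05. Obp57c, Obp57b and Obp57a lie together between -0.77 and -0.52, while Obp83g (3.07) and Obp99b (3.19) stand apart from their neighbours.

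Of the members known from the male reproductive tract and seminal fluid, Obp51a, Obp22a and Obp8a were lower. Obp51a had 2474, 1506 and 1536 normalized counts in CR11538-overexpressing libraries, against 4235, 4559 and 4490 in control libraries. The log2 fold change was -1.27 (SE 0.17, adjusted p = 0.000728), and the control libraries agreed closely while CR11538-overexpressing replicate 1 was higher than the other two.
Obp22a, on 2L, had 341, 488 and 433 normalized counts in CR11538-overexpressing libraries, against 567.5, 522 and 573 in control libraries (log2 fold change -0.40, SE 0.12, adjusted p = 0.0351). Obp8a, on the X chromosome, had 102, 135 and 118 normalized counts in CR11538-overexpressing libraries, against 184, 155 and 156 in control libraries (log2 fold change -0.48, SE 0.14, adjusted p = 0.0318). Neither gene overlaps between the genotypes, but both calls depended on which libraries were used. That of Obp22a was lost on removal of CR11538-overexpressing replicate 1 (adjusted p of 0.0513) or of control replicate 1 (0.101), 2 (0.0686) or 3 (0.108), and with library size alone (0.0513), and that of Obp8a without CR11538-overexpressing replicate 1 (0.0801) or 3 (0.0505) or control replicate 1 (0.122), 2 (0.0632) or 3 (0.0586).
The seminal genes Obp56g and Obp56f, above, did not pass the test. Obp56i had 176, 151.5 and 204 normalized counts in CR11538-overexpressing libraries, against 161, 120 and 157 in control libraries, which overlap. Of 11 accessory gland markers, 3 were higher (Acp36DE, Acp62F and Acp76A), 1 was lower (Acp26Ab) and 7 did not pass, and their summed level was 49436 to 56527 normalized counts in CR11538-overexpressing libraries, against 39622 to 48146 in control libraries. Of 4 markers of the ejaculatory duct and bulb, Dup99B and EbpII were higher and none was lower, with sums of 68339 to 78341 in CR11538-overexpressing libraries and 59513 to 68463 in control libraries. None of these markers was at 0, and the tissue of origin of Obp51a, Obp22a and Obp8a in these flies was not tested.

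On the X chromosome, Obp18a fell by nearly 2-fold. It had 284, 270.3 and 262 normalized counts in CR11538-overexpressing libraries, against 514, 590.2 and 501 in control libraries (log2 fold change -0.98, SE 0.09, adjusted p = 0.000128). The libraries of a genotype agreed closely and the genotypes lie far apart.
Obp19d, a pheromone-binding protein-related gene of antenna and taste organs, had 2229, 2948 and 2741 normalized counts in CR11538-overexpressing libraries, against 3164, 3955 and 3552 in control libraries (log2 fold change -0.43, SE 0.11, adjusted p = 0.0187). The genotypes do not overlap, and the call was lost without control replicate 2 (adjusted p = 0.0846) or control replicate 3 (0.0602). The 4 genes of section 19 lie within 5.24 kb, and the 3 others, Obp19a, Obp19b and Obp19c, had log2 fold changes of 0.95, 0.08 and -0.17, with adjusted p of 0.384, 0.870 and 0.679.
Obp49a, a protein of taste bristles through which bitter compounds dampen the response to sugar, had 344, 408 and 388 normalized counts in CR11538-overexpressing libraries, against 324, 309 and 297 in control libraries (log2 fold change 0.29, SE 0.09, adjusted p = 0.0409). These values do not overlap, yet the call held in 4 of 12 alternatives. The adjusted p was 0.138 without CR11538-overexpressing replicate 2, 0.0779 without replicate 3, and 0.0774, 0.109 and 0.113 without control replicates 1, 2 and 3. It was 0.0815 by DESeq2 and 0.0919 by edgeR with library size alone.

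A set of members known from the antenna, grouped after their values were seen, differed widely between libraries of a genotype. It leaves out Obp56d and Obp19d, which are also known from the antenna and were called lower. Obp83a and Obp83b are the antennal proteins OS-F and OS-E of the sensilla that detect pheromones. Obp83a had 2.04, 24.8 and 67.8 normalized counts in CR11538-overexpressing libraries, against 2.93, 160.1 and 37.6 in control libraries (log2 fold change -1.07, SE 1.02, adjusted p = 0.468). Obp83b had 4.07, 20.8 and 31.0 normalized counts in CR11538-overexpressing libraries, against 10.7, 109 and 49.4 in control libraries (log2 fold change -1.58, SE 0.75, adjusted p = 0.144). In both genes control replicate 2 was the highest of the 6 libraries, and replicate 1 was the lowest of each genotype. Without control replicate 2 the log2 fold change of Obp83a was 0.68 (adjusted p = 0.717). That of Obp83b was -2.08 without control replicate 1 (adjusted p = 0.0355).
Obp28a, an antennal protein of basiconic sensilla, had 46.8, 79.2 and 74.6 normalized counts in CR11538-overexpressing libraries, against 39.0, 131 and 46.2 in control libraries (log2 fold change -0.11, adjusted p = 0.876). Obp59a, which takes part in the sensing of humidity, had 1.02, 9.90 and 10.7 normalized counts in CR11538-overexpressing libraries, against 0, 14.7 and 2.15 in control libraries (log2 fold change 0.34, adjusted p = 0.830). As in Obp83a, control replicate 2 was the highest library and replicate 1 the lowest of each genotype. Obp69a and Obp19a had log2 fold changes of 0.11 and 0.95 (adjusted p of 0.877 and 0.384), and control replicate 1 was their lowest library.
Within each genotype, the order of libraries in Obp83a was also that of a10, a chemosensory protein of the antenna that does not belong to the Obp family, with 3.05, 15.8 and 48.4 normalized counts in CR11538-overexpressing libraries, against 0.975, 109 and 28.99 in control libraries (adjusted p = 0.483). lush, the Obp of the pheromone cis-vaccenyl acetate, does not carry the family's symbol and had 29.5, 26.7 and 24.2 normalized counts in CR11538-overexpressing libraries, against 21.5, 40.3 and 30.1 in control libraries (adjusted p = 0.668). Orco, the co-receptor of the odorant receptors, had 28.5, 33.7 and 32.9 normalized counts in CR11538-overexpressing libraries, against 18.5, 55.0 and 27.9 in control libraries (adjusted p = 0.877). Control replicate 2 was highest in these 3 genes too, with a narrower spread in lush and Orco than in a10. Other antennal genes did not all share this. Ir25a, an ionotropic receptor gene, had 52.65, 55.97 and 70.87 normalized counts in control libraries, with control replicate 3 the highest of all libraries. Among genes with few counts, Ir8a was highest in control replicate 2, but Or22a, Or42b and Or47b were highest in other libraries. Of the 33 tested members, 11 had their highest value in control replicate 2.

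**Figure D5:**
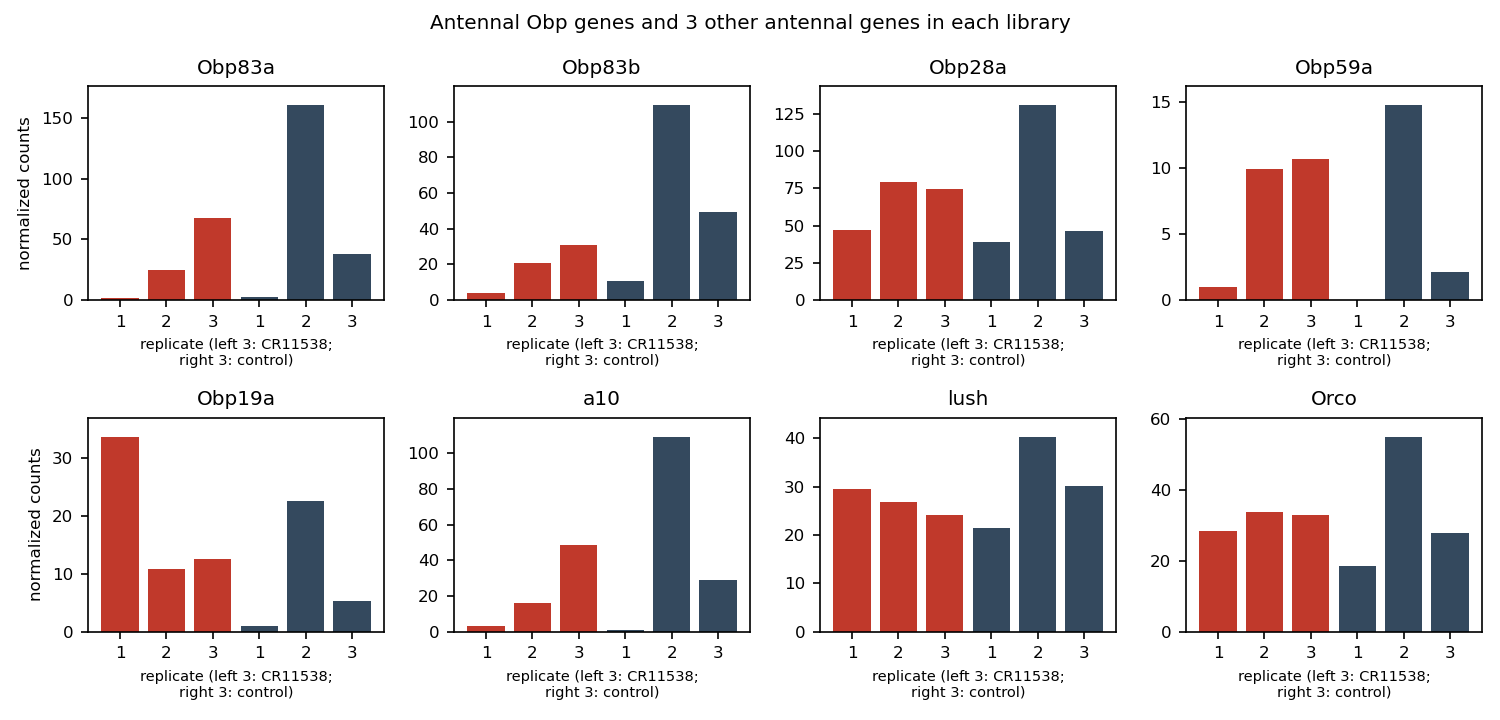
Normalized counts (vertical axis, from 0) in each of the 6 libraries for 5 antennal Obp genes and for a10, lush and Orco; red bars are CR11538-overexpressing replicates 1 to 3 and blue-grey bars control replicates 1 to 3. Control replicate 2 is the highest library in every panel but that of Obp19a, with 160.1 for Obp83a and 109 for a10. Ir25a, an antennal gene not shown, was highest in control replicate 3.

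The other tested members had few counts. Obp46a had 38.7, 13.9 and 17.4 normalized counts in CR11538-overexpressing libraries, against 12.7, 1.96 and 49.4 in control libraries (log2 fold change 0.15, adjusted p = 0.904). Obp50d had 19.35, 17.8 and 24.2 normalized counts in CR11538-overexpressing libraries, against 10.7, 13.7 and 16.1 in control libraries (log2 fold change 0.60, adjusted p = 0.184), with no overlap. It was the only member of section 50 to be tested.
Of the 18 members that did not pass the filter, 13 had at least 1 count, none more than 14 in a library. Obp73a had 4, 10 and 14 raw counts in CR11538-overexpressing libraries, against 3, 4 and 1 in control libraries, and Obp84a, a gene of the antenna, had 0, 0 and 0 against 1, 4 and 2. Neither gene was tested, so no call is made on these differences. Obp47b, Obp50b, Obp50c, Obp57d and Obp58d had no count in any library, and a count of 0 allows a share of up to 1.53e-05% of the deepest library, taking 3 counts as the limit and for counting error only.
For 4 of these 5 the annotation places every exon base inside exons of another gene. Obp50b and Obp50c share all their exons with each other, Obp57d shares its exons with Cpr57A on the same strand, and Obp47b lies opposite CG7741. How reads that fall on several genes were counted is not given in the sources used here, so a 0 in these 4 genes does not speak of their expression. In all, 14 of the 51 members overlap another gene.

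Most tested genes of the receptor families for odours and tastes did not pass. Of 11 tested odorant receptor genes (61 in the table), 1 was lower, Or82a, and none was higher. Of 18 tested ionotropic receptor genes (66 in the table), Ir40a was higher and Ir75a was lower. Of 15 tested gustatory receptor genes (60 in the table), only Gr8a was called. Gr8a, a taste receptor for the plant toxin canavanine, had 27.5, 86.2 and 101 normalized counts in CR11538-overexpressing libraries, against 8.78, 6.87 and 4.30 in control libraries (log2 fold change 3.39, SE 0.54, adjusted p = 0.00193). These calls are below the 29.2% of all tested genes in each receptor family, but counts of receptor genes were low. All 61 odorant receptor genes together had 471 to 537 normalized counts in CR11538-overexpressing libraries and 436 to 520.5 in control libraries. Whether receptor genes changed less than other genes was not tested.
Of 5 other genes of odour detection, the CD36-related genes Snmp1, needed for pheromone responses, and Snmp2 were lower (log2 fold changes -0.50 and -0.69, adjusted p of 0.00891 and 0.000319), and Est-6, lush and Jhedup did not pass. Of 4 genes of the chemosensory protein family, a10, EbpIII and CG30172 did not pass, and Phk-3, pherokine 3, was higher. Phk-3 had 1445, 1350 and 1461 normalized counts in CR11538-overexpressing libraries, against 843, 638 and 573 in control libraries (log2 fold change 1.05, SE 0.12, adjusted p = 0.000403), with no overlap.
Of 14 tested genes of the takeout family, secreted carriers of other hydrophobic ligands, 5 were lower and none was higher, with a median log2 fold change of -0.34. Among all tested genes 14.2% were lower. The gene to, given above with the fat body markers, is among those counted as lower here. Jhbp4, Jhbp13 and Jhbp11 had the lowest adjusted p, with log2 fold changes of -4.80, -1.09 and -0.78. Olfactory neuron and antenna markers were 8 in number, of which 4 could be tested and Snmp1 alone was lower. Their summed level was 328 to 338 normalized counts in CR11538-overexpressing libraries and 383 to 484 in control libraries. Snmp1 made up the larger part of this sum in every library, so the sums do not speak of the markers as a set. The other tested markers, Orco, lush and Ir25a (adjusted p = 0.956), overlap between the genotypes. Or47b was at 0 in all CR11538-overexpressing libraries and had 1, 1 and 2 raw counts in control libraries.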

How the data were processed

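The authors made paired-end libraries from poly(A) RNA, mapped them to the dm6 genome (HISAT2 2.0.5) and assigned reads to genes (featureCounts 1.5.0-p3). What they deposited is a table of unnormalized counts, with each library in its own column, and the genotype of each library came from the submitters' labels. Symbols and dm6 coordinates were taken from Ensembl release 115, which names 17252 of the 17558 identifiers. The members and lists were chosen with earlier results of these data known. edgeR 4.0.16 (R 4.3.3) was run with filterByExpr, TMM and the quasi-likelihood test, with genotype as the only term (4 residual degrees of freedom) and Benjamini-Hochberg adjustment over 13159 genes. Printed fold changes include edgeR's shrinkage, and standard errors are the unshrunken coefficient divided by the square root of F. On simulated counts for this comparison (12909 genes), edgeR recovered 98% of genes simulated at 2-fold and 100% at 0.5-fold. The simulation gave every gene the same fixed dispersion between replicates and changed only genes above a minimum level in control libraries. These shares therefore do not hold for members with few counts or a wide spread between replicates. Called members averaging 20 or more normalized counts were named with their values, and from other lists up to 3 genes with the lowest adjusted p, while genes between or next to clusters were named by position. Library totals ran from 17040432 to 19652500, and replicates differed by more than sampling noise (6.87 to 35.6 as the chi-square divided by the number of genes). Alternatives were DESeq2 1.42.0, edgeR scaled by DESeq2 size factors or by library size alone, edgeR unfiltered or with a minimum of 10 counts per library, a block for replicate number, leaving out single libraries, and a test against a fold of 2 (glmTreat). Protein and promoter sequences were not analysed here. Python 3.11.15 with pandas 2.3.3 and matplotlib 3.10.9 made tables and figures.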

Additional observations from a re-analysis of the deposited data

How the results depend on the processing

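With the 12 alternatives other than glmTreat, 9 of the 14 called members (Obp18a, Obp51a, Obp56d, Obp57c, Obp57b, Obp57a, Obp83g, Obp99c and Obp99b) kept their call and direction in each, 5 (Obp8a, Obp19d, Obp22a, Obp49a and Obp99a) lost it in at least 1, and none of the 14 reversed. The test against a fold of 2 asks for a larger change by construction: it called 3 members, Obp99b and Obp83g (2 higher) and Obp56d (1 lower), 3 genes of the chemosensory lists in place of 15, and 210 of all genes in place of 613 past both thresholds and 3844 at any fold. With library size alone 3 members were higher. Leaving out each library gave 9 to 14 called members, 3 to 6 higher, 4 to 7 past both thresholds with 2 to 4 of them lower, and 2339 to 3873 genes in all. Among members that did not pass, the log2 fold change turned sign with a library left out in Obp19b (-0.18 to 0.54), Obp19c (-0.27 to 0.04), Obp28a (-0.41 to 0.65), Obp46a (-0.41 to 1.65), Obp56a (-0.05 to 0.22), Obp59a (-0.25 to 2.68), Obp69a (-0.27 to 0.41) and Obp83a (-2.30 to 0.68), and the cause was not tested. Replicates of the genotypes share numbers, but same-numbered libraries deviated together only weakly (correlations of 0.13, 0.03 and 0.07) and the labels tie them to no shared batch. With the replicate number as a block, 14 members were called and 3985 genes in all: Obp83b was called (-1.52, adjusted p = 0.0153), Obp49a was not (adjusted p = 0.0544), and Obp28a was at 0.00. The median of all genes moved by -0.018 with library size alone and by 0.008 with DESeq2 size factors. With at least 10 counts in every library, 6 of the members could not be fitted. The 18 members that could not be tested had too few counts, and whether low expression or depth set this was not tested. For the 4 that lie wholly inside exons of another gene, a count of 0 does not speak of expression.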
